A study of Homo sapiens with 208 samples.

Results

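The first hours of the epidermal growth factor (EGF) response were followed in serum-starved PC9 cells, a human lung adenocarcinoma cell line whose EGF receptor carries an activating deletion in the kinase domain. The members were chosen by their labels alone, as the arrays of PC9 with EGF and without treatment at 0.5, 1, 2, 3 and 4 h, which gave 10 arrays, 5 a side, or 4.81% of all arrays of the series. The pair taken at 0 h served as a baseline. All cells had been starved for 48 h, the treated cells then received 100 ng/ml EGF, and the untreated cells received neither EGF nor drug. For comparison, the same 5 time points were taken in PC9GRM2, the label of a gefitinib-resistant line that was derived from PC9 by selection of clones in the drug, and in PC9 cells under 0.5 μM gefitinib, an inhibitor of the receptor kinase, with and without EGF. The 20 later hourly pairs of PC9, from 5 to 24 h, formed the last comparison. Each RNA sample went onto 1 single-colour Agilent array of the human genome, so there were no replicate arrays at any time point. The labels name no separate cultures, successive time points are not independent, and the p-values measure only the spread between time points.

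EGF binds its receptor and activates the RAS, RAF, MEK and ERK kinase cascade. ERK and its downstream kinases phosphorylate transcription factors that are already present, such as the ETS-type partners of serum response factor (SRF), and immediate-early genes are then transcribed without new protein synthesis. Their products include the EGR, FOS, JUN and KLF transcription factors, which act on delayed-early genes, as well as phosphatases and adaptors that restrain the pathway. Immediate-early transcripts are short-lived and usually decline within hours. In cells whose receptor is mutated, the kinase signals without ligand, so that the pathway is already active before EGF is added.

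The genomic stretches just before the start sites of 6 genes are printed because these genes carry the results that follow. KLF2 and EGR4 passed the test, EGR1 and DUSP1 are textbook targets of the pathway, and ACTG2 and CXCL8 are described for their time courses. Each sequence comes from RefSeq (build GRCh38.p14), covers the 250 bases before the annotated start and is written 5′ to 3′ on the strand of the gene. Capitals mark matches, on either strand, to the CArG box, which SRF binds, to TGACGTCA, the cyclic AMP response element, to TGANTCA, which AP-1 dimers of FOS and JUN bind, or to GCGTGGGCG, which EGR proteins bind. The windows are chr19:16324576-16324825 (plus strand) for KLF2, chr2:73293549-73293798 (minus) for EGR4, chr5:138465229-138465478 (plus) for EGR1, chr5:172771196-172771445 (minus) for DUSP1, chr2:73892758-73893007 (plus) for ACTG2 and chr4:73740319-73740568 (plus) for CXCL8.
KLF2: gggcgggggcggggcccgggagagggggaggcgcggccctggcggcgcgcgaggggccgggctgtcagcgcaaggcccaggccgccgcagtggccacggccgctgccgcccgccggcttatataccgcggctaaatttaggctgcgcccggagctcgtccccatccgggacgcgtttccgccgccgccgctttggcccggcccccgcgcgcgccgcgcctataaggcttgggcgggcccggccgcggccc
EGR4: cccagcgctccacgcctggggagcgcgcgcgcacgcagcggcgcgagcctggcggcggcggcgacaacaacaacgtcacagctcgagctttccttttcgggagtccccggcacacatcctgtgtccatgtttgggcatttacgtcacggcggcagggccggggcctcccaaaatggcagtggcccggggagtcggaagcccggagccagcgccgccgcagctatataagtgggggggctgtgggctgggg
EGR1: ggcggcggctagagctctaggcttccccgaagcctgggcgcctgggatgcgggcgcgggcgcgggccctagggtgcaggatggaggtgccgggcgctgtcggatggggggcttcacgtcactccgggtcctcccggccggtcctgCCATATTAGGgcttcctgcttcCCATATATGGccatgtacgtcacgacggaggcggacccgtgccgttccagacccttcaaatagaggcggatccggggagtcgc
DUSP1: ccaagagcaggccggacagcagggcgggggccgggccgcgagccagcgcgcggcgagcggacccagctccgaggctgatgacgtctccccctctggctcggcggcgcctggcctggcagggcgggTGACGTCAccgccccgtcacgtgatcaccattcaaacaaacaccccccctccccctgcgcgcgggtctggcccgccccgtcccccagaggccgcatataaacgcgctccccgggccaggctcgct
ACTG2: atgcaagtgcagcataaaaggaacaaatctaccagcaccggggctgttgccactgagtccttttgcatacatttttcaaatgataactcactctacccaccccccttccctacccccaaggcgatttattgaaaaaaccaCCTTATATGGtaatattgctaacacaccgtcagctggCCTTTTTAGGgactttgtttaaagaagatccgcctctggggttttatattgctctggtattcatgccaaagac
CXCL8: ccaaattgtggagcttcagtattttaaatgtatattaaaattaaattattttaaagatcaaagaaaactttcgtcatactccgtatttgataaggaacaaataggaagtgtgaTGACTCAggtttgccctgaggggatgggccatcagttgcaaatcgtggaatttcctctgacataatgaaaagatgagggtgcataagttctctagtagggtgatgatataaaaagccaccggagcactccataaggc

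EGR1 and ACTG2 held 2 CArG boxes each, DUSP1 held 1 cyclic AMP response element and CXCL8 held 1 AP-1 motif. The windows of KLF2 and EGR4 held none of the 4 motifs. Over the 11229 tested genes with such a window, 1.11% held a CArG box, 2.71% TGACGTCA, 4.26% TGANTCA and 1.12% GCGTGGGCG. A match describes the letters in the window and is neither a binding site nor a cause.

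A few facts about the arrays bear on every value. At the 5 time points, the features that exceeded background clearly numbered 32110 to 35281 on an array, and 1023 to 1702 were saturated. In all 6 pairs both arrays lay on the same slide, with the untreated sample always in the first position and the EGF sample always in the second, so that treatment and slide position cannot be told apart. The slides were scanned on 2 days, with 0 to 2 h on the first and 3 and 4 h on the second. Of 11 epithelial and lung markers, 10 were well above background on all 10 arrays, among them EPCAM and KRT18, whereas the lung lineage factor NKX2-1 was so on none. Of the 5 fibroblast markers with a probe none was well above background on all 10 arrays, and the lymphocyte markers PTPRC, CD3D and MS4A1 were so on none. Of the 16961 genes with a named probe, 14009 were tested, and 2952 were not because their probe was well above background on fewer than 5 of the 10 arrays.

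The size of the difference between the arrays of a pair gave the background for each time point. Over all tested genes, the difference of the log2 signals with and without EGF had an SD of 0.28 at 0 h, 0.24 at 0.5 h, 0.21 at 1 h, 0.25 at 2 h, 0.53 at 3 h and 0.32 at 4 h. Thus at 0.5, 1 and 2 h the 2 arrays differed over all genes by no more than they did at 0 h. At 0 h, 41 genes were at least 2-fold higher and 53 at least 2-fold lower with EGF, against 50 and 44 at 0.5 h, and 38 and 29 at 1 h. Among the 10837 genes with a mean log2 signal of at least 6, the same counts were 9 and 17 at 0 h, 16 and 2 at 0.5 h, 22 and 3 at 1 h, and 22 and 13 at 2 h. Among the pairs from 0 to 4 h, the 3 h pair stood apart, with 183 genes at least 2-fold higher and 759 at least 2-fold lower. Both of its arrays departed from the mean of their neighbours in time, with an SD over genes of 0.53 for EGF and 0.42 without treatment, against 0.20 to 0.33 for the other 8 arrays. For several genes the mean without the 3 h pair is given as well. The 20 later pairs of the course had SDs over genes of 0.35 to 0.80 (median 0.57), so the 3 h pair stood apart only from the other early pairs.

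**Figure D1:**
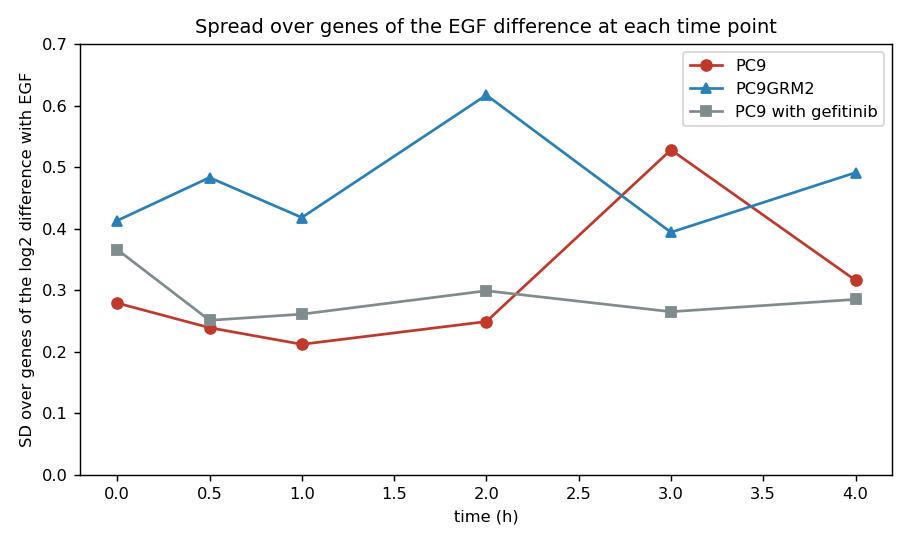
SD over all tested genes of the log2 difference with EGF (vertical axis) at each time point in hours (horizontal axis), for PC9, PC9GRM2 and PC9 under gefitinib, with 1 pair of arrays per point. In PC9 the values at 0.5, 1 and 2 h lie below the 0 h value of 0.28, and the 3 h value of 0.53 lies above the other 5 values of PC9 without gefitinib.

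EGF was first compared with no treatment over the 5 pairs. KLF2 and EGR4 were the genes that passed, both higher with EGF, which is 0.0143% of the genes tested, and no gene passed in the other direction (limma, Benjamini-Hochberg adjusted p under 0.05). At an unadjusted p under 0.05 there were 1426 genes, or 10.18% of those tested, 750 higher and 676 lower. Both calls were lost when the pair at 0.5, 2, 3 or 4 h was left out and kept without 1 h. In cultures measured as a whole, a response of fewer cells and a smaller response per cell cannot be told apart. With a spread estimated over the 25 time points of the course, an alternative chosen after seeing the data, 64 genes passed, 58 higher and 6 lower.

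KLF2 encodes a zinc-finger transcription factor of the Krüppel-like family. With EGF its log2 signal was 12.91 at 0.5 h, 13.79 at 1 h, 12.95 at 2 h, 11.68 at 3 h and 11.43 at 4 h. Without treatment it was 10.96, 11.03, 10.50, 9.65 and 9.64 at the same times. Every EGF array lay above every untreated array, whereas at 0 h the values were 10.68 and 10.70. KLF2 rose by a mean of 2.19 (SE 0.15, n = 5 pairs, adjusted p = 0.0263), which is 4.57-fold. Without the 3 h pair the mean was 2.23 (adjusted p = 0.0633). The 3 pairs of the first scan day gave 2.38 and the 2 pairs of the second gave 1.91. A second and dimmer probe of the gene, with a mean log2 signal of 5.57, differed by 0.70 and was higher in 4 of 5 pairs.

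EGR4 is 1 of the 4 early growth response zinc-finger factors, which are classical targets of ERK and SRF. Its log2 signal with EGF was 6.59, 7.39, 7.15, 6.85 and 6.99 from 0.5 to 4 h, against 5.10, 5.11, 5.27, 5.33 and 5.55 without treatment, and the groups did not overlap. At 0 h the difference was 0.02. EGR4 rose by 1.72 (SE 0.14, n = 5, adjusted p = 0.0359). Without 3 h the mean was 1.77 (adjusted p = 0.0840), and the 2 scan days gave 1.88 and 1.48. Under normexp background correction the mean of this dim gene was 0.48 (adjusted p = 0.304).

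The other EGR factors were higher in all 5 pairs without passing the test. The log2 signal of EGR1 was 12.22, 12.29, 11.38, 10.97 and 11.39 with EGF, and 10.08, 10.03, 9.88, 10.44 and 10.57 without. The difference was largest in the first hour, at 2.14 and 2.26, and was 0.53 at 3 h and 0.82 at 4 h. Its mean was 1.45 (SE 0.27, n = 5, adjusted p = 0.261).

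EGR2 stood at 7.45, 7.72, 7.36, 7.21 and 6.94 with EGF and at 5.39, 5.23, 5.34, 5.92 and 6.07 without, so that the groups did not overlap. Its mean difference was 1.75 (SE 0.23, adjusted p = 0.139), against -0.03 at 0 h. Over the 21 alternatives described below, this mean ranged from 0.49 to 1.97. EGR3 differed by 0.87, 1.68, 1.89, 1.52 and 1.12 at the 5 time points, with a mean of 1.41 (SE 0.15, adjusted p = 0.122). All 4 EGR genes therefore showed differences above 0.5 in every pair, and at 0 h none of them exceeded 0.23.

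**Figure D2:**
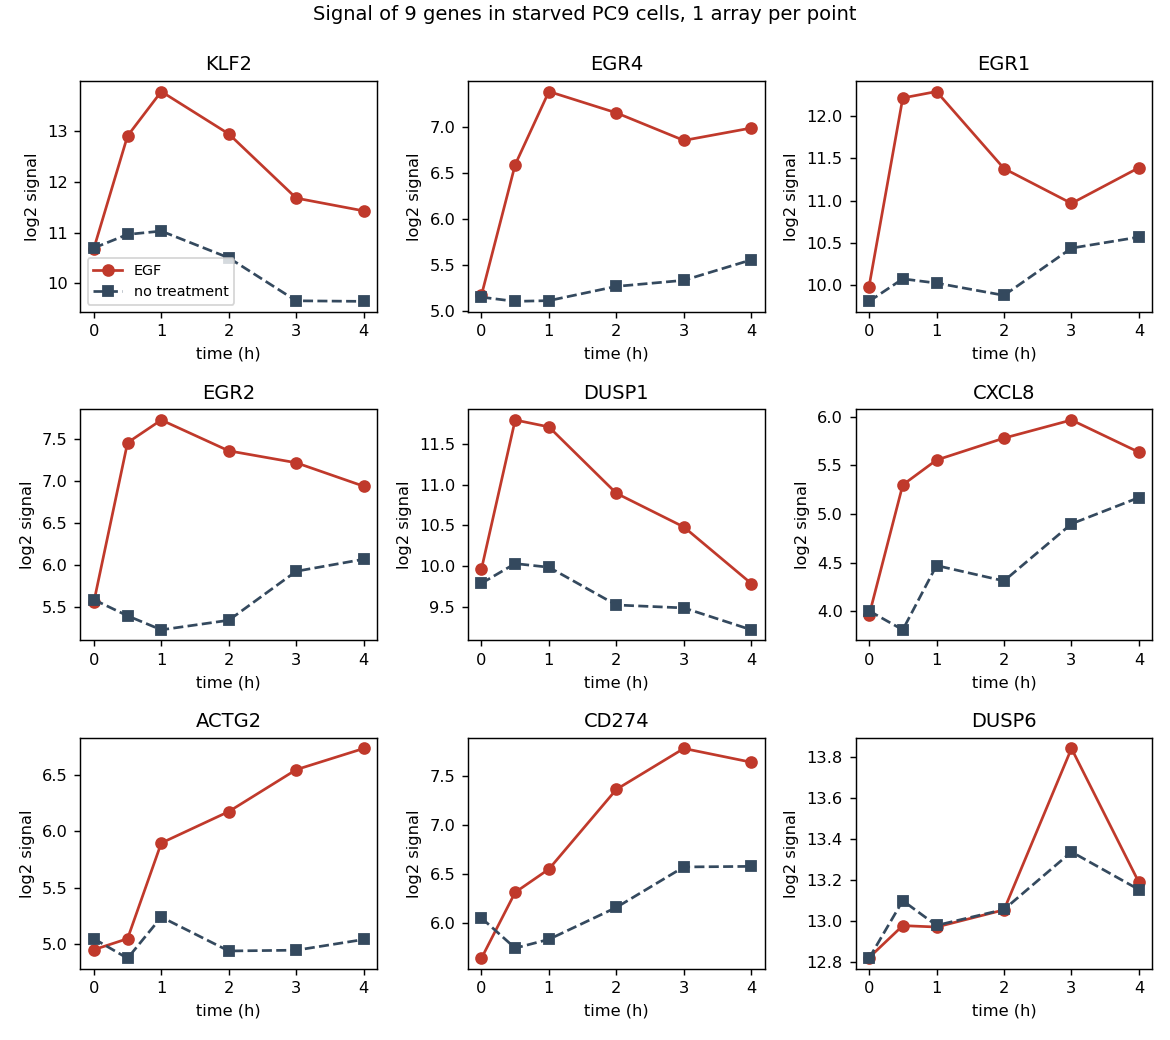
Log2 signal (vertical axis, a separate scale for each gene) of 9 genes at 0 to 4 h (horizontal axis) in PC9 with EGF (red circles) and without treatment (dark squares), 1 array per point. KLF2 peaks at 13.79 at 1 h with EGF. ACTG2 and CD274 have their largest differences over 2 to 4 h, and CD274 is already higher with EGF at 0.5 h. DUSP6 shows nearly equal values except at 3 h.

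Among other genes of known early response, DUSP1 encodes a phosphatase that inactivates MAP kinases. Its log2 signal was 11.80, 11.71, 10.90, 10.48 and 9.78 with EGF, and 10.03, 9.98, 9.52, 9.48 and 9.21 without, with a mean difference of 1.29 (SE 0.18, adjusted p = 0.178). The paired difference was smaller at each successive time point, from 1.77 at 0.5 h to 0.57 at 4 h. RHOB, a small GTPase that acts on endosomes and the actin cytoskeleton, differed by 1.45, 1.93 and 1.69 at 0.5, 1 and 2 h, by 0.13 at 3 h and by 1.28 at 4 h.

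EDN1, which encodes the vasoactive peptide endothelin-1, differed by 1.27, 1.80, 1.41, 1.03 and 0.34, with a mean of 1.17 (SE 0.19, adjusted p = 0.210). CXCL8 encodes the neutrophil chemokine interleukin-8. It was measured at 5.30, 5.55, 5.78, 5.97 and 5.63 with EGF and at 3.81, 4.47, 4.31, 4.90 and 5.17 without, and its mean difference was 1.11 (SE 0.15, adjusted p = 0.152). Over the 21 alternatives described below, this mean ranged from 0.15 to 1.28. The EGF signal of CXCL8 was highest at 3 h, when its untreated signal was also above its earlier values. CCDC68, which completes the 10 largest positive means, was dim, with log2 signals of 1.96 to 4.22, and differed by -0.58 at 0 h and by 1.24 over the 5 pairs (SE 0.23, adjusted p = 0.251).

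The members of the immediate-early transcription factor list were then described together. Of 24 tested members, 12 (50%) were higher in all 5 pairs, against 869 genes or 6.2% of all tested genes, and none was lower in all 5, against 7.85%. Their median difference was 0.47, against -0.02 over all tested genes. By time, the median of the members was 0.05 at 0 h, 0.63 at 0.5 h, 0.76 at 1 h, 0.55 at 2 h, 0.36 at 3 h and 0.18 at 4 h. NR4A1, an orphan nuclear receptor, differed by 0.93, KLF6, another Krüppel-like factor, by 0.79, and JUN, a partner in AP-1, by 0.59, and each was higher in all 5 pairs.

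FOS, the other classical AP-1 partner, was already bright without treatment, at a log2 signal of 11.36 to 12.18. With EGF it was 13.18 at 0.5 h, 12.42 at 1 h, 12.39 at 2 h, 12.07 at 3 h and 11.64 at 4 h. Its difference was 1.01 at 0.5 h, with a mean of 0.57 (SE 0.12, adjusted p = 0.307). FOSL1, a FOS-related factor, had a mean difference of 0.64 (SE 0.09, adjusted p = 0.185) and was higher in all 5 pairs. Its difference at 0 h was 0.34.

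JUNB and MYC turned on the 3 h pair and on the probe. JUNB, a JUN-related factor, differed by 0.73, 1.13, 0.50, -2.02 and 0.13, so that its mean was 0.09 with and 0.62 without 3 h. MYC, a regulator of growth, differed by 0.06, 0.55, 0.69, -1.64 and 0.45, with a mean of 0.02 (SE 0.33, adjusted p = 0.982) and of 0.44 without 3 h. Its difference at 0 h was 0.44, as large as this value. In both genes the probe of maximal variance was the dimmer one. The brighter probe of JUNB was higher by 0.69, 0.95, 0.76, 0.86 and 0.08 at the 5 time points, with a mean of 0.67, and that of MYC by 0.69, 0.28, 0.78, 0.01 and 0.09, with a mean of 0.37. The difference below 0 at 3 h was thus seen with 1 of 2 probes in each gene.

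Of 27 tested members of the list of other immediate-early genes, 15 (55.56%) were higher in all 5 pairs. Their median difference was 0.33, beside 0.10 at 0 h. ZFP36, which encodes a protein that destabilizes AU-rich mRNAs, differed by 1.17 and 1.14 in the first hour and by 0.24 at 4 h. CCN1, a matricellular protein, differed by 1.00, 1.35 and 1.05 up to 2 h, and by 0.20 and 0.09 thereafter. F3, the tissue factor that starts coagulation, had its largest difference, 1.05, at 3 h. IER3 differed by 1.68 at 0.5 h, by 0.60 at 1 h and by -0.31 at 2 h, and was saturated on 2 of the 10 arrays. IER2 was saturated on all 10 arrays, so that a change could not be read from it.

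Negative feedback genes fell into 2 patterns. Of 20 tested ERK feedback inhibitors, 10 (50%) were higher in all 5 pairs, with a median of 0.26, beside 0.14 at 0 h. Besides DUSP1, these included DUSP14 at 0.54, ERRFI1, which binds and inhibits the receptor kinase, at 0.53 (SE 0.10, adjusted p = 0.251), PHLDA1 at 0.49 and DUSP5, a nuclear ERK phosphatase, at 0.39.

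DUSP6, the cytoplasmic phosphatase of ERK and a usual readout of its activity, did not show such a difference. Its log2 signal was 12.98, 12.97, 13.05, 13.84 and 13.19 with EGF, and 13.10, 12.98, 13.06, 13.34 and 13.15 without. The mean difference was 0.08 (SE 0.10, adjusted p = 0.732), and -0.02 without 3 h. SPRY4, an inhibitor of RAS activation, differed by 0.20 (SE 0.06, adjusted p = 0.405), which is less than its difference of 0.28 at 0 h.

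The ETS factors ETV4 and ETV5, which are transcribed under sustained ERK activity, differed by -0.10 and 0.02. The 10 ERK-output genes had a median difference of 0.14, beside 0.12 at 0 h, with 2 of 10 (20%) higher in all 5 pairs. With gefitinib alone against no treatment, the median of the same 10 genes was -2.34. This comparison and that of EGF share the untreated arrays. In gefitinib minus untreated, DUSP6 stood at -4.74 and SPRY4 at -5.01, and both were lower with the drug in all 5 pairs. The untreated values of these genes were therefore far above those under gefitinib, while EGF added little to them.

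Ligands of the ERBB receptors can feed back on the pathway. AREG (amphiregulin) was 10.05, 10.21, 10.74, 10.73 and 10.58 with EGF and 9.81, 9.60, 9.38, 9.61 and 9.76 without, so that the groups did not overlap. Its mean difference was 0.83 (SE 0.16, adjusted p = 0.276), beside 0.43 at 0 h. HBEGF differed by 0.63 (SE 0.11, adjusted p = 0.210) and by -0.23 at 0 h. EREG (epiregulin) differed by 0.50 (SE 0.06, adjusted p = 0.122), but at 0 h by 0.48, which is the size of its later values. TGFA and BTC differed by 0.20 and 0.07, and 3 of the 6 tested ligands (50%) were higher in all 5 pairs. The median of the 6 was 0.35, beside 0.25 at 0 h. EGFR, the receptor itself, was nearly constant, with log2 signals of 11.92 to 11.99 with EGF and 11.77 to 12.00 without, a difference of 0.06 (SE 0.07, adjusted p = 0.686).

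Of 10 tested cytokines and chemokines, 4 (40%) were higher in all 5 pairs. CSF2, which encodes GM-CSF, differed by 0.83 (SE 0.09, adjusted p = 0.122), with 0.54 at 0 h, and IL6 by 0.40 in 4 of 5 pairs with 0.43 at 0 h. The median of the list was 0.36 at 0 h and 0.35 over the 5 pairs, so that the baseline difference was as large as the later one. Of 22 tested YAP-TEAD and SRF cytoskeletal targets, 9 (40.91%) were higher in all 5 pairs, with a median of 0.21 against -0.13 at 0 h. CCN2, a matricellular protein, differed by 0.56, 1.05, 1.19, 0.77 and 0.21. FHL2, a LIM-domain cofactor whose promoter window holds 1 CArG box, had a mean difference of 0.59.

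**Figure D3:**
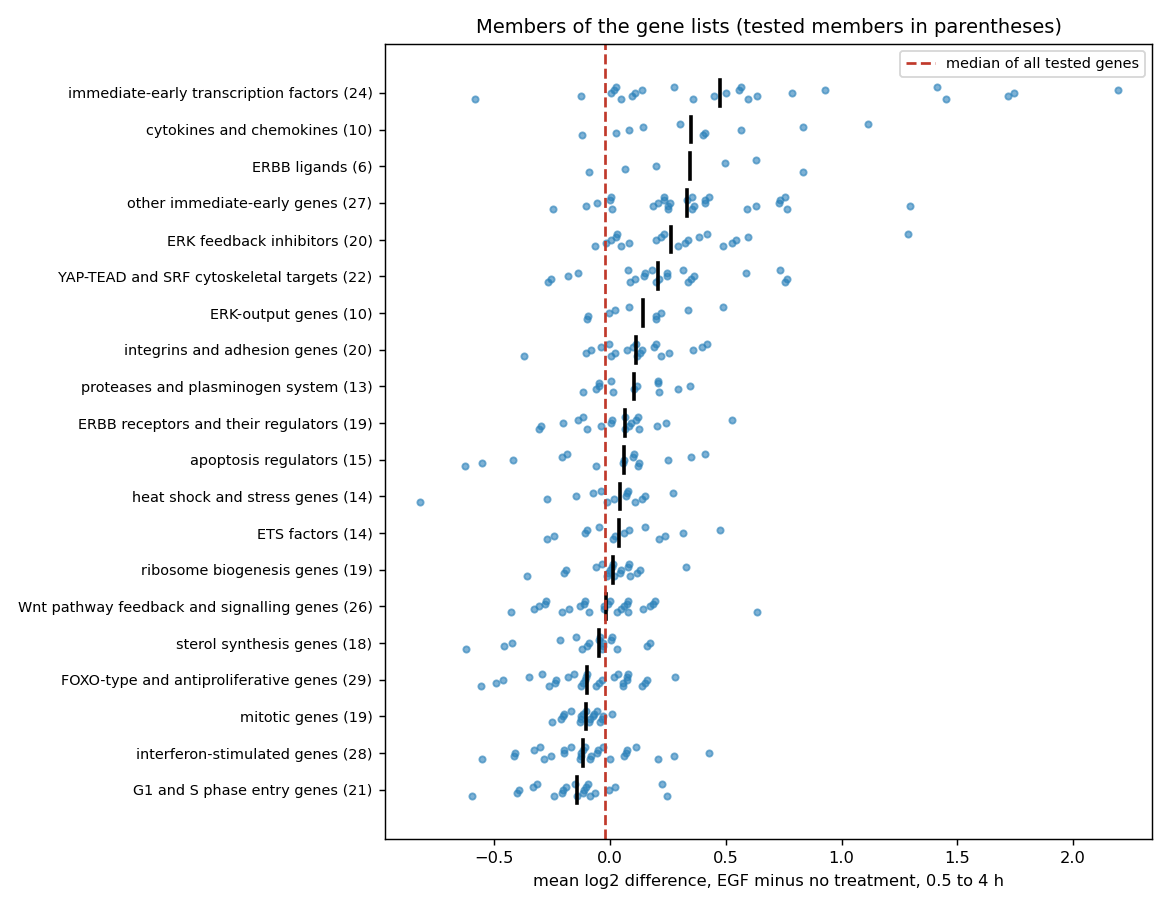
Mean log2 difference, EGF minus no treatment over 0.5 to 4 h (horizontal axis), of each tested member (points) of 20 gene lists (vertical axis), with the median of each list (black bars) and of all tested genes (red dashed line, -0.02). The immediate-early transcription factors have the largest median, 0.47, and KLF2 is their member at 2.19.

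A wider set was described with no test, as the genes higher in all 5 pairs with a mean of at least 0.5. It held 97 genes, or 0.692% of those tested, of which 28 belong to the lists, and the mirror set of lower genes held 38, or 0.271%. STK17A at 0.50 was just inside the bound and ANGPTL1, also at 0.50 after rounding, just outside. Of the 97, 83 were well above background on all 10 arrays and 38 had a mean log2 signal under 6. In 90 of them the mean exceeded the difference at 0 h. The bound of 0.5 largely sets this count, since the SD over all tested genes at 0 h was 0.28. Without the 3 h pair, 73 of the 97 and 16 of the 38 kept a mean beyond the bound. By the time of the largest difference, 9 of the 97 peaked at 0.5 h, 20 at 1 h, 25 at 2 h, 32 at 3 h and 11 at 4 h. The 3 h count includes the pair that stood apart. Of the 78 members with a promoter window, 9 held TGANTCA (11.5%), 3 a CArG box (3.85%), 3 TGACGTCA (3.85%) and 2 GCGTGGGCG (2.56%), beside the shares of all windows given above. The ETS motif CCGGAAGT was held by 1 (1.28%, against 6.48% of all windows) and the E-box CACGTG by 8 (10.3%, against 8.5%). Of the 30 windows of the lower set, 2 (6.67%) held TGANTCA.

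Several genes of the set, named after their values were seen, encode surface or signalling proteins. PTGER4, a prostaglandin E2 receptor, was higher by 1.17, 1.49, 1.24, 1.10 and 0.48. CLCF1, a cytokine of the interleukin-6 family, was higher by 0.68, 1.20, 1.35, 1.12 and 0.74. CD274, which encodes the immune checkpoint ligand PD-L1, was measured at 6.31, 6.55, 7.36, 7.78 and 7.64 with EGF and at 5.74, 5.83, 6.16, 6.57 and 6.58 without. Its difference was 0.57 at 0.5 h and 1.07 to 1.21 from 2 h on, and -0.41 at 0 h. PDCD1LG2, the second ligand of the same receptor, had a mean difference of 0.62. SOCS3, an inhibitor of cytokine receptor signalling, was higher by 0.55 at 0.5 h and by 0.80 to 1.23 from 1 h on. PTGS2, the inducible cyclooxygenase, had a mean difference of 0.63 and was dim, with log2 signals of 3.09 to 5.11.

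On the lower side, no gene passed the test. Of the 38 lower genes, 24 had their lowest difference at 3 h. GPR153, an orphan receptor, differed by -0.43, -0.49, -0.18, -2.98 and -1.60, with a mean of -1.14 (SE 0.40, adjusted p = 0.457), and by -0.55 at 0 h. Without 3 h the mean was -0.67. Its untreated signal also was at its lowest at 3 h, at 12.72 against 14.59 to 16.67 at the other 4 times. DEPP1, a FOXO target, differed by -0.36, -0.44, -0.96, -2.25 and -0.70, with a mean of -0.94 (SE 0.27, adjusted p = 0.399) and -0.62 without 3 h.

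Among the other 8 of the 10 most negative means, TGM7, SLC6A7, LCE5A and FRRS1L had means of -0.92, -0.84, -0.76 and -0.69. The signals of TGM7, SLC6A7 and FRRS1L were dim, at 2.10 to 5.86, and LCE5A was saturated on 4 arrays and differed by -0.70 at 0 h and by a mean of -0.38 without 3 h. S1PR5, a sphingosine-1-phosphate receptor, differed by -0.83, VAV3 by -0.66, ZFP14 by -0.66 and JAKMIP3 by -0.66, the last with -0.72 at 0 h. CEBPA, a transcription factor of lung and myeloid differentiation named after its values were seen, was lower by 0.44 to 0.78 in all 5 pairs, but also by 0.66 at 0 h. Of 19 tested mitotic genes none was higher and 4 (21.05%) were lower in all 5 pairs, with a median of -0.10.

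The first hour was next compared with 2 to 4 h. No gene passed (limma, smallest adjusted p = 0.768), and 798 genes had an unadjusted p under 0.05, or 5.698% of those tested. The order of the values is therefore a description, and since 3 and 4 h were scanned on another day than 0.5 to 2 h, period and scan day largely coincide. EGR1 differed by 1.25 more and EGR2 by 0.89 more in the first hour. GPR153, DEPP1 and JAKMIP3, the others of the 5 largest, had less negative differences in the first hour, by 1.13, 0.90 and 0.84. Without 3 h these 3 contrasts were 0.43, 0.43 and 0.78, and those of EGR1 and EGR2 were 1.04 and 0.84. In the opposite direction, ACTG2, a smooth-muscle actin, differed by 0.17, 0.66, 1.24, 1.60 and 1.69, and its contrast was -1.10, or -1.05 without 3 h. ANGPTL4, which inhibits lipoprotein lipase, differed by 0.05 and 0.09 in the first hour and by 0.97, 1.39 and 1.20 afterwards. SGMS2, FERMT2 and PROSER2 had contrasts of -0.85, -0.77 and -0.76, and of -0.65, -0.59 and -0.62 without 3 h.

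The EGF difference was set against that in the resistant line and under gefitinib. Neither of these shares an array with the PC9 pairs. The PC9GRM2 pair at 0.5 h stood apart and went against its labels. On the array labelled EGF at 0.5 h the log2 signal of DUSP6 was 7.75, against 12.00 to 12.97 on the EGF arrays of the line at 0, 1, 2, 3 and 4 h and 7.76 to 10.25 on its gefitinib arrays at those times. On the array labelled EGF and gefitinib at 0.5 h it was 12.54, against 7.51 to 9.76 on the others of that label. SPRY4 showed the same exchange, at 5.28 and 10.29 on these 2 arrays. With the labels as given, the 10 ERK-output genes had a median EGF difference of -1.71 in PC9GRM2 at 0.5 h, with 9 of them lower, against 0.08 to 0.50 at 1 to 4 h. The labels were kept, the cause was not tested, and the PC9GRM2 values below are given with and without 0.5 h.

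For PC9 against PC9GRM2 no gene passed (limma, smallest adjusted p = 0.471), and 1231 had an unadjusted p under 0.05. Without 0.5 h, an alternative chosen after seeing the data, no gene passed either (smallest adjusted p = 0.531, 1291 genes at an unadjusted p under 0.05). The lines shared no slide, and the difference of the PC9GRM2 pairs had an SD over genes of 0.39 to 0.62, larger than in PC9 at every time point but 3 h. KLF2 differed with EGF by -0.63, 1.53, 1.04, 0.27 and 0.07 in PC9GRM2, with a mean of 0.46 against 2.19 in PC9. Without 0.5 h these means were 0.73 and 2.25. The difference between the lines was 1.74 (SE 0.20, adjusted p = 0.471), and 1.53 without 0.5 h (SE 0.14, adjusted p = 0.531). The direction for KLF2 was thus the same with and without that pair. EGR1 had means of -0.25 in PC9GRM2 and 1.45 in PC9, which were 0.57 and 1.28 without 0.5 h. HBEGF had means of 0.70 and 0.63 (adjusted p = 0.966), which were 1.28 and 0.65 without 0.5 h (adjusted p = 0.531). The sign of the PC9GRM2 mean of EGR1 therefore rested on the 0.5 h pair. Of the 97 genes, 81 had a mean above 0 in PC9GRM2 (83.5%, against 52% of all tested genes), and their median was 0.29 against 0.01. At all 5 time points 3 of the 97 were higher (against 5.3%). Without 0.5 h, 88 had a mean above 0 (90.7%, against 52.4%), their median was 0.53 and 44 were higher at all 4 time points (45.4%, against 12.6%).

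Under gefitinib the EGF difference of KLF2 was 0.27, 0.37, 0.08, -0.20 and 0.16, with a mean of 0.14. KLF2 was the only gene that passed for a larger EGF difference without than with gefitinib, by 2.06 (SE 0.15, n = 5, adjusted p = 0.0222), or 0.00714% of those tested. None passed in the other direction, and 1728 genes had an unadjusted p under 0.05. This call was lost when any 1 of the 5 time points was left out. EGR4 had means of 0.22 with and 1.72 without the drug, EGR1 of 0.12 and 1.45, DUSP1 of 0.04 and 1.29, and CXCL8 of 0.10 and 1.11 (adjusted p between 0.166 and 0.185). EGR3 had a mean of 0.64 under gefitinib (adjusted p of the difference 0.412), with 1.99 at 4 h and a mean of 0.31 without it. Of the 97 genes, 64 had a mean above 0 under gefitinib (66%, against 49.6% of all tested genes), with a median of 0.09, and 20 were higher at all 5 time points (against 10.4%).

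**Figure D4:**
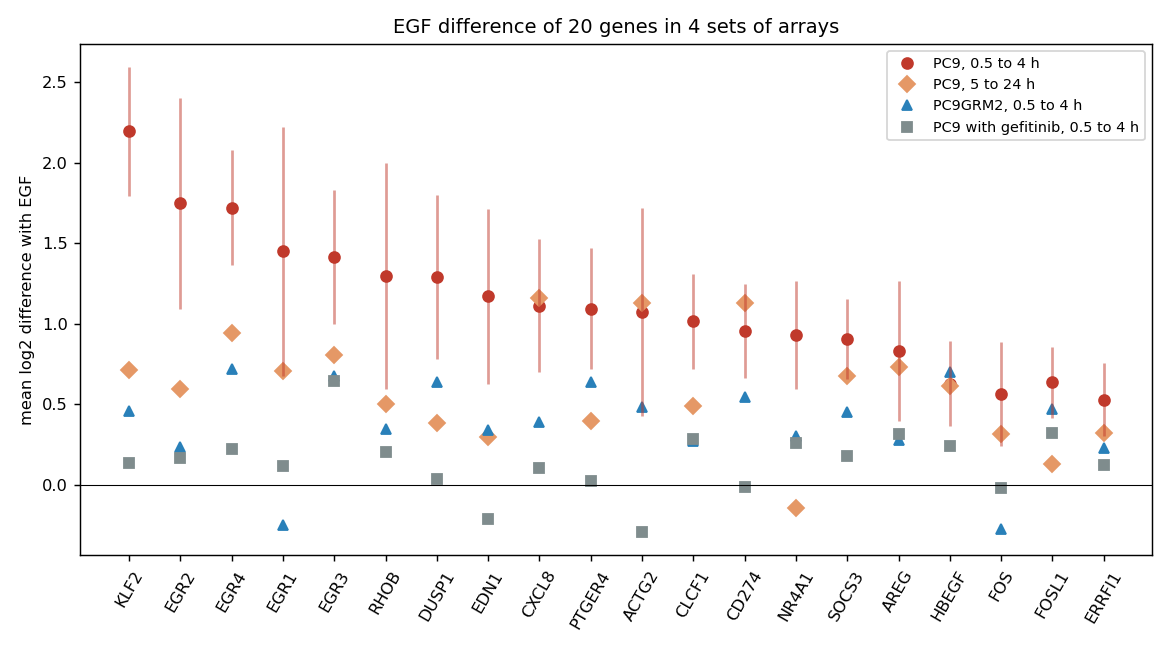
Mean log2 difference with EGF (vertical axis) of 20 genes (horizontal axis) in PC9 at 0.5 to 4 h (red circles with bars of 1 SD over 5 pairs), PC9 at 5 to 24 h (orange diamonds, 20 pairs), PC9GRM2 at 0.5 to 4 h (blue triangles) and PC9 under gefitinib at 0.5 to 4 h (grey squares). KLF2 lies at 2.19, 0.71, 0.46 and 0.14 in that order. The blue triangles include the 0.5 h pair of PC9GRM2 that went against its labels.

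The comparison with the later hours of the same course had the most calls. It drew on 20 later pairs besides the 5 early ones, so its count is not comparable with those of the tests over 5 time points. The SDs over genes were 0.35 to 0.80 (median 0.57) for the later pairs, against 0.21 to 0.53 for the early pairs. How this spread bears on the calls was not tested. The EGF difference was more positive at 0.5 to 4 h than at 5 to 24 h for 66 genes (0.471% of those tested) and more negative for 55 (0.393%). Of the 66, 13 had an early mean of at least 0.5, and 36 had a late mean of -0.5 or below. Of the 55, 39 had a late mean of at least 0.5. Without 3 h 71 genes were called, and without 1 h 40. Leaving out 0.5 h gave 55, 2 h gave 45 and 4 h gave 115, and with the time points not paired 3 genes were called.

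Genes with a larger EGF difference early than late included 5 of the 24 immediate-early transcription factors. KLF2 had a late mean of 0.71 and was still higher at all 19 later time points at which it was measured, so that the early difference exceeded the late one by 1.48 (SE 0.19, adjusted p = 0.000224). EGR2 exceeded its late mean of 0.59 by 1.15 (SE 0.23, adjusted p = 0.0101), and NR4A1 its late mean of -0.14 by 1.07 (SE 0.15, adjusted p = 0.000322). DUSP1, EDN1 and PTGER4 followed with 0.90, 0.87 and 0.69. NUAK2, an AMPK-related kinase, went from 0.65 early to -0.29 late. EGR1 and EGR4 had late means of 0.71 and 0.94 and did not pass (adjusted p = 0.0812 and 0.239). CXCL8 and CD274 had late means of 1.16 and 1.13, beside early means of 1.11 and 0.96, and did not pass (adjusted p = 0.981 and 0.805).

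Other genes of the same direction were not higher early but lower late. LTB, which encodes lymphotoxin beta, differed by -0.21 to 0.03 at 0.5 to 3 h and by -0.58 at 4 h, and its late mean was -1.75, below 0 at all 20 later time points (difference 1.60, SE 0.25, adjusted p = 0.00114). CXCL10, an interferon-induced chemokine, had an early mean of -0.28 and a late mean of -1.88 (difference 1.60, SE 0.40, adjusted p = 0.0499). Its call was lost without 0.5, 1, 2 or 3 h.

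Genes of the opposite direction had their larger difference late. Of the 97 genes higher in all early pairs, 88 had a late mean above 0 (90.7%, against 48.6% of all tested genes), 33 had one of at least 0.5 (against 2.36%), and 22 were higher at all 20 later time points (against 1.4%). MMP1, an interstitial collagenase, differed by -0.07, -0.07, 0.19, 0.30 and 0.70 at the 5 early time points, and by 0.52 at 0 h. Its late mean was 2.38, higher at all 20 time points, and the early difference was lower by 2.17 (early minus late -2.17, SE 0.32, adjusted p = 0.000481). FLRT3, an adhesion protein that binds FGF receptors, had an early mean of -0.25 and a late mean of 0.99 (early minus late -1.23, SE 0.20, adjusted p = 0.00177). KRT6C, a keratin of stressed epithelia, had means of -0.03 (0.18 without 3 h) and 1.05 (early minus late -1.09, SE 0.18, adjusted p = 0.00164), and its neighbour KRT6A, which has a near-identical sequence so that the probes may not tell them apart, had means of 0.07 and 1.12. HAS3, a hyaluronan synthase, was higher both early, at 0.52, and late, at 1.25.

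**Figure D5:**
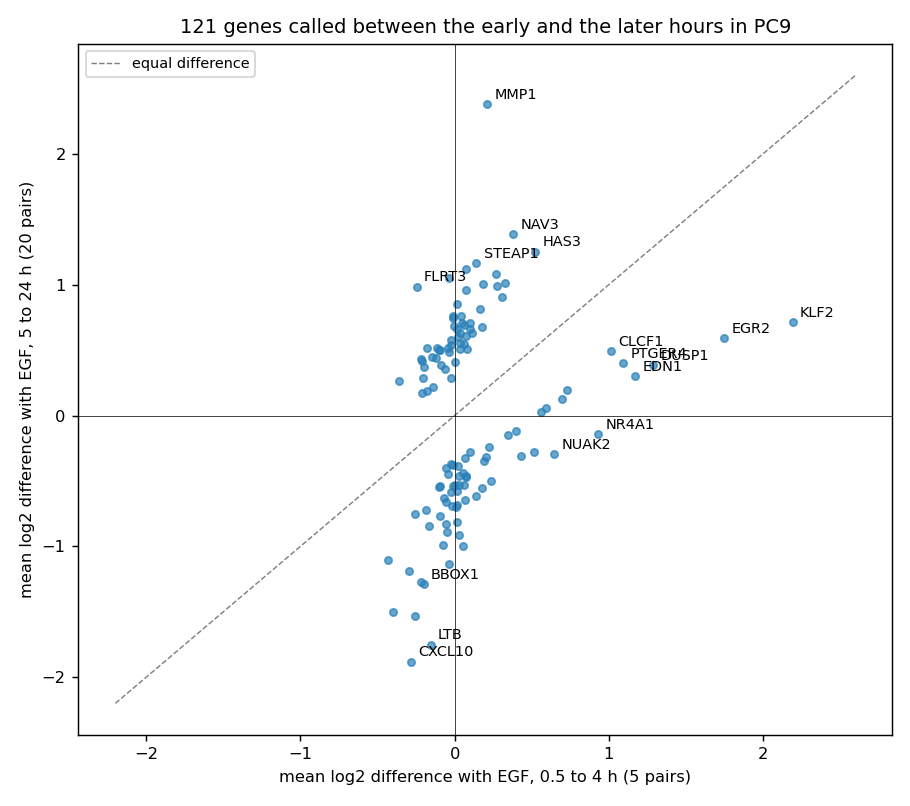
Mean log2 difference with EGF at 5 to 24 h (vertical axis, 20 pairs) against that at 0.5 to 4 h (horizontal axis, 5 pairs) for the 121 genes called between the periods in PC9, with the line of equal differences. MMP1, at 0.21 early and 2.38 late, lies farthest above the line, and LTB, at -0.155 early and -1.75 late, farthest below it, while KLF2 lies at 2.19 early and 0.71 late.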

How the data were processed

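RNA of 10 PC9 arrays, 5 with EGF and 5 without treatment, was compared at matched time points. The authors deposited intensities from the scanner software (Feature Extraction 10.5.1.1 per the file headers; the study's methods name another version), corrected for local background and spatial trend but not normalized between arrays. They also deposited a table of intensities that they had quantile normalized. Here the processed intensities were quantile normalized over all 208 arrays, values under 1 were raised to 1, and log2 was taken. Features marked as outliers (0.171% of tested values) were set to missing, spots of a probe were averaged, and each gene was represented by its probe of maximal variance, as in the methods. Names came from RefSeq accessions, which matched 24794 of 41000 probes. Genes entered the test if 5 or more of the 10 arrays had the probe well above background. In 126 tested genes 1 or more pairs lacked a value and the fit used the others, and 3 genes had no contrast of the periods.

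Differences at matched time points were tested, two-sided, with limma 3.58.1 in R 4.3.3, with Benjamini-Hochberg adjustment over all tested genes at 0.05. Pairing follows the time label, and all 6 pairs shared a slide. The scripts were tested on simulated data.

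The genes named are the pathway members DUSP6, SPRY4, ETV4, ETV5, EGR1, FOS, FOSL1, JUNB, MYC, HBEGF, AREG, EREG, EGFR and ERRFI1, called members of lists, the 10 largest mean differences in each direction among genes of 1 sign in all 5 pairs, the 5 largest contrasts between periods in each direction, and up to 3 called genes in each direction of each other comparison. Others are examples of lists or were named after their values were seen. The members, the 20 lists and the tests were chosen with earlier results of these data known. Alternatives were scaling to the 75th percentile, quantile normalization over only the arrays compared, the deposited table, normexp correction (offset 50), no filter, a filter for all 10 arrays, averaging the probes of a gene, taking its brightest probe, a floor of 16, outlier features kept, unpaired arrays, the methods' paired t-test, an intensity trend, a 2-fold minimum, subtraction of the 0 h difference, leaving out each time point, and, added after seeing the data, the spread over 25 time points and means without the 0.5 h pair of PC9GRM2 or the 4 h pair of EGR3 under gefitinib. The files used here hold median but no mean signals, so normexp was run on the median signal and median background. With 1 array per time point, the number of arrays limits the precision.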

Additional observations from a re-analysis of the deposited data

Results flagged for a closer look

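In 6 genes the difference at 1 of the 5 time points lay far from the other 4; chance alone would mark about 1 in 20 such sets of values. At 3 h these were DUSP6 at 0.51, SPRY4 at 0.11, MYC at -1.64 and FLRT3 at 0.23, and at 4 h SLC6A7 at -2.45 and CXCL10 at -1.21. The 3 h values belong to the pair that stood apart from the other early pairs over all genes.

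The EGF difference of KLF2 was larger without than with gefitinib by 2.06. Between the early and the later hours, the difference of LTB was more positive early by 1.60, that of CXCL10 by 1.60 and that of KLF2 by 1.48, while MMP1 (-2.17), FLRT3 (-1.23) and KRT6C (-1.09) were more negative early.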

How the results depend on the processing

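The number of genes called for EGF against no treatment was 2 in the reported analysis. It was 0 under normexp, a floor of 16, no filter and the methods' paired t-test (1365 genes at an unadjusted p under 0.05), 1 with probes averaged (EGR4) or with quantile normalization over the compared arrays only, and 64 with the spread over 25 time points, chosen after seeing the data. Leaving out 1 time point gave 0 to 2. Without the replicate block, that is with time points not paired, 2 genes were called, EGR4 among them but not KLF2 (adjusted p = 0.839). For the gefitinib comparison, the 1 call became 0 under normexp, a floor of 16, no filter, averaged probes and each omission of a time point (0 to 0), 4 without the replicate block and 3 by the methods' t-test. Subtraction of the 0 h difference gave 2453, 5017 and, for PC9 against PC9GRM2, 3687 calls. The same 0 h pair then enters all 5 differences, so that its error is in the estimate and not in the spread. The 121 early against late calls became 3 without the replicate block, 17 with a 2-fold minimum and 40 to 115 on leaving out a time point.

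Of the mean differences of 33 named genes under up to 21 alternatives, 670 kept their sign and 18 did not. Many of the 670 could not have changed sign. Alternatives that altered only the test or the filter left the mean as it was. Genes chosen for the same sign in all pairs could not reverse on leaving out a time point. The tally therefore does not measure how stable the signs were. With 75th percentile scaling the reversed values were ETV5 at -0.009 and MYC at -0.084, and with normexp MYC at -0.014. With the 0 h difference subtracted they were SPRY4 at -0.084, ETV5 at -0.098, JUNB at -0.219, MYC at -0.418, EGFR at -0.175 and JAKMIP3 at 0.067. On leaving out a time point, DUSP6 ranged from -0.024 to 0.133, ETV5 from -0.04 to 0.109, JUNB from -0.166 to 0.623 and MYC from -0.144 to 0.44. List medians moved under normexp to 0.167 for ERK feedback inhibitors, 0.111 for ERBB ligands, 0.104 for cytokines and 0.016 for proteases. With no filter they were 0.085, 0.08 and 0.017 for the last 3 lists, and with the brightest probe 0.197 for the ligands. With 75th percentile scaling they were 0.156 for integrins and 0.086 for ribosome biogenesis. Where not stated, the cause was not tested. Dim probes limit these values, since 38 of the 97 genes had a mean log2 signal under 6.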

Other observations

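The remaining lists had medians close to that of all tested genes, which was -0.02. Over all tested genes, 6.2% were higher and 7.85% lower in all 5 pairs. For FOXO-type and antiproliferative genes, 1 of 29 was higher and 1 lower in all 5 pairs, with a median of -0.10. The lower gene was BCL6, a transcriptional repressor, at -0.56. Of 28 interferon-stimulated genes 2 were higher and 4 lower in all 5 pairs, with a median of -0.12. The higher ones were GBP1, a guanylate-binding protein, at 0.43 and IFI6 at 0.11. Of 21 genes of G1 and S phase entry 1 was higher and 2 lower in all 5 pairs, with a median of -0.15 beside -0.30 at 0 h.

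Of 19 ERBB receptors and regulators 4 (21.05%) were higher and 2 (10.53%) lower in all 5 pairs, against 6.2% and 7.85% of all tested genes. The lower ones were ERBB3, the kinase-impaired partner receptor, at -0.31 and GRB2, the adaptor that links the receptor to RAS, at -0.20. The 2 other and brighter probes of GRB2 differed by -0.13 and -0.05, and each was higher in 1 of 5 pairs. The share higher in all 5 pairs was 23.08% for proteases and plasminogen genes and 21.43% for ETS factors. It was 15% for integrins and adhesion genes and 13.33% for apoptosis regulators. For the sterol, heat shock, ribosome biogenesis and Wnt lists it lay between 5.263% and 7.692%. The medians of the other lists were 0.04 for 14 ETS factors, 0.10 for 13 proteases and plasminogen genes, 0.06 for 15 apoptosis regulators, 0.11 for 20 integrins and adhesion genes, -0.05 for 18 sterol synthesis genes, 0.04 for 14 heat shock and stress genes, 0.01 for 19 ribosome biogenesis genes and -0.02 for 26 Wnt pathway genes. Among the last, 2 (7.692%) were higher and 4 (15.38%) lower in all 5 pairs. DKK1, a secreted Wnt antagonist, had the highest mean of the list, 0.64. AXIN2, a target gene of β-catenin, had the lowest, -0.43, and its second probe differed by -0.37. Neither AXIN2 probe was higher in any pair.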
